A study of Mus musculus with 4 samples.

Results

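Genes of mitosis and the spindle were examined in epidermis of transgenic mice that overexpress either noggin or BMP4. The set was a list of 41 genes named for their part in cell division. A gene counted as measured where the array annotation held a probe set with that symbol and no other, and the probe set with the highest mean stood for the gene. This gave 40 measured genes of 19938 named genes on the array. Ccnb1, the gene of cyclin B1, had no such probe set and is named here without values.

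The mice carried a K14 promoter-driven transgene, which is active in basal keratinocytes, for noggin in one line and for BMP4 in the other. Epidermis was cut by laser from sections of glabrous hindpaw skin, with 8 to 10 strips per animal and 6 animals per line. Each array holds pooled RNA of 3 animals, and each line gave 2 such pools with no animal in common. Every difference below is noggin minus BMP4, between 2 transgenic lines, and non-transgenic skin was not analysed here. The labels give neither age nor sex of the animals.

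Cell division in epidermis takes place mainly in the basal layer. As a cell passes from the G2 phase into mitosis, cyclins activate Cdk1, the chromosomes condense, kinetochores attach them to the spindle, a checkpoint holds the cell until all are attached, and the anaphase-promoting complex then releases the sister chromatids before the cell divides. Transcripts of these proteins are made together late in the cell cycle, under the factors B-Myb and FoxM1 with the MuvB complex, and are nearly absent from resting cells, which makes them common markers of dividing cells. BMP signalling is known in skin for holding hair follicle stem cells in a resting state, and noggin blocks BMPs outside the cell.

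The deposited values were log2 probe set intensities with array medians between 6.04 and 6.06. Keratin transcripts of the epidermis were present at high values, with Krt5 and Krt14 of the basal layer between 12.25 and 12.58 and Krt1 and Krt10 of the layers above between 13.06 and 13.36 in all arrays. The transgenes did not stand out. Nog had a mean of 5.95 in noggin and 6.09 in BMP4 arrays, and Bmp4 had a mean of 7.81 in noggin and 8.13 in BMP4 arrays. The sources used here do not say which stretch of either transcript is in the transgene, so the labels are not checked by these values. BMP4 replicate 1 stood apart from the other arrays in several marker lists described further on, and the counts and the median over the whole set are therefore given with and without it.

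All 40 measured mitosis and spindle genes had a lower mean in noggin than in BMP4 epidermis, although for Espl1 the means were nearly equal. The kinesin gene Kif2c, the transcription factor gene Foxm1 and the midzone gene Prc1 had the largest differences, at 2.18-fold, 1.91-fold and 1.89-fold higher means in BMP4. The median difference over the 40 genes was -0.57, a 1.49-fold higher median in BMP4, against a median of -0.01 over all named genes. A lower mean in noggin was found in 52.2% of all named genes. In 31 of the 40 genes the lines were apart, with each noggin array below each BMP4 array, which held for 17.9% of all named genes. At least a 1.5-fold lower mean in noggin was seen for 19 of the 40 genes and for 0.838% of all named genes.

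No mitosis or spindle gene passed the test across the whole array. Limma called 0 of the 40 at an adjusted p below 0.05, with adjusted p from 0.636 to 1.0, and it called 0% of all named genes and 0 of 35556 probe sets. At an unadjusted p below 0.05, 19 of the 40 lay lower in noggin and 0 lay higher, and 2.10% of all named genes lay lower at that level. Without BMP4 replicate 1 the count was 9 of the 40, against 1.12% of all named genes, and without noggin replicate 1 it was 9, against 1.84%. With all arrays the 95% interval of the difference excluded 0 for those 19 genes and included it for the other 21. With 2 arrays against 2 the smallest p of an exact permutation test, two-sided, is 0.333, so these values are descriptions of 4 pools and no gene is called. In simulated data the same fit called 3.2% of log2 differences of 1 and 70.8% of differences of 2. A count of 0 called therefore says little about differences of the size seen here. The genes of the set are not independent replicates of each other.

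**Figure D1:**
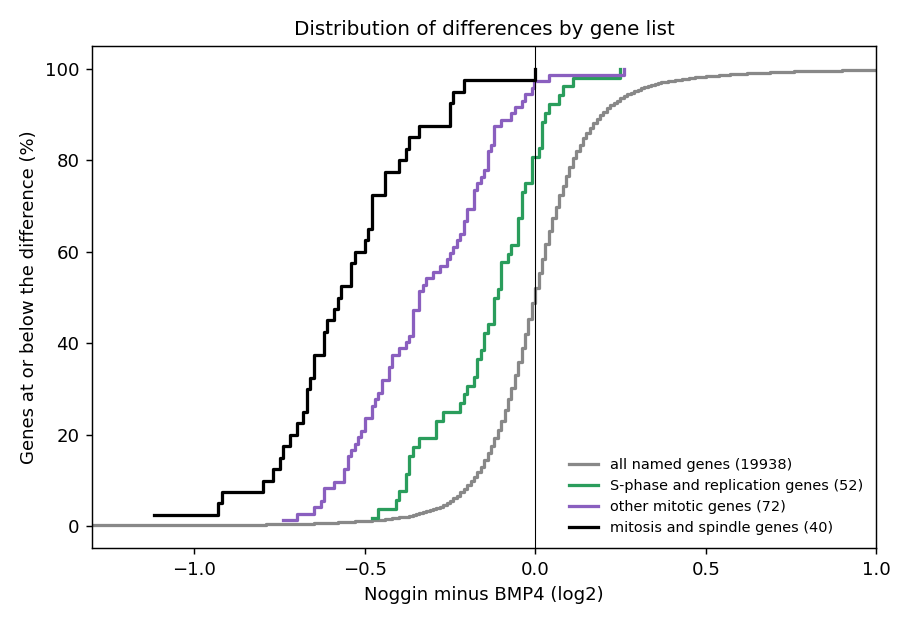
Cumulative share of genes (vertical axis, percent) at or below each difference of noggin minus BMP4 (horizontal axis, log2) for the 40 mitosis and spindle genes, 72 other mitotic genes, 52 S-phase and replication genes and all 19938 named genes. The curve of the mitosis and spindle genes lies farthest to the left, with a median of -0.57, followed by the other mitotic genes at -0.34, the S-phase genes at -0.11 and all named genes at -0.01.

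Replicate arrays of the same line differed from each other in these genes as well. Relative to each gene's mean over the 4 arrays, the median of the 40 genes was -0.42 in noggin replicate 1, -0.097 in noggin replicate 2, 0.10 in BMP4 replicate 2 and 0.43 in BMP4 replicate 1. BMP4 replicate 1 was the highest array in 40 of 40 genes, against 24.2% of all named genes. Noggin replicate 1 was the lowest array in 34 of 40, against 21.2% of all named genes. The whole order of the 4 arrays from BMP4 replicate 1 down through BMP4 replicate 2 and noggin replicate 2 to noggin replicate 1 was found in 27 of 40, against 4.36% of all named genes. The median gap was 0.33 between the BMP4 arrays and 0.26 between the noggin arrays, and BMP4 replicate 2 exceeded noggin replicate 2 by a median of 0.20. The spread between pools of 1 line was thus at least as large as the gap between the arrays of the 2 lines that lay nearest to each other.

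Leaving out BMP4 replicate 1 gave a median difference of -0.39, with a lower mean in noggin for 38 of the 40 genes and 52.9% of all named genes. The remaining BMP4 array lay above both noggin arrays in 31 of the 40, against 34.8% of all named genes. Leaving out noggin replicate 1 gave a median of -0.38, with 39 of the 40 genes and 55.3% of all named genes lower in noggin. Leaving out noggin replicate 2 or BMP4 replicate 2 gave -0.75 and -0.74. At least a 1.5-fold lower mean in noggin was left for 10 of the 40 genes without BMP4 replicate 1, against 0.592% of all named genes, and for 8 without noggin replicate 1, against 1.02%. It was found for 26 without noggin replicate 2, against 1.24%, and for 30 without BMP4 replicate 2, against 1.5%. For 26 of the 40 genes the difference moved by more than 1.5 times on leaving out some array. Bulk strips do not show whether fewer cells were dividing or dividing cells held less of these transcripts, which cannot be told apart.

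Foxm1, Knstrn and Spag5 had been picked earlier by their small p on these 4 arrays, so they are not independent evidence of the direction. The other members were also listed with earlier results of these data known, so leaving out these genes does not give an independent check. Without Foxm1, Knstrn and Spag5, the noggin mean was the lower in 37 of 37 genes, and the median difference of the 37 was -0.54. The lines were apart in 28 of the 37, against 17.9% of all named genes.

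**Figure D2:**
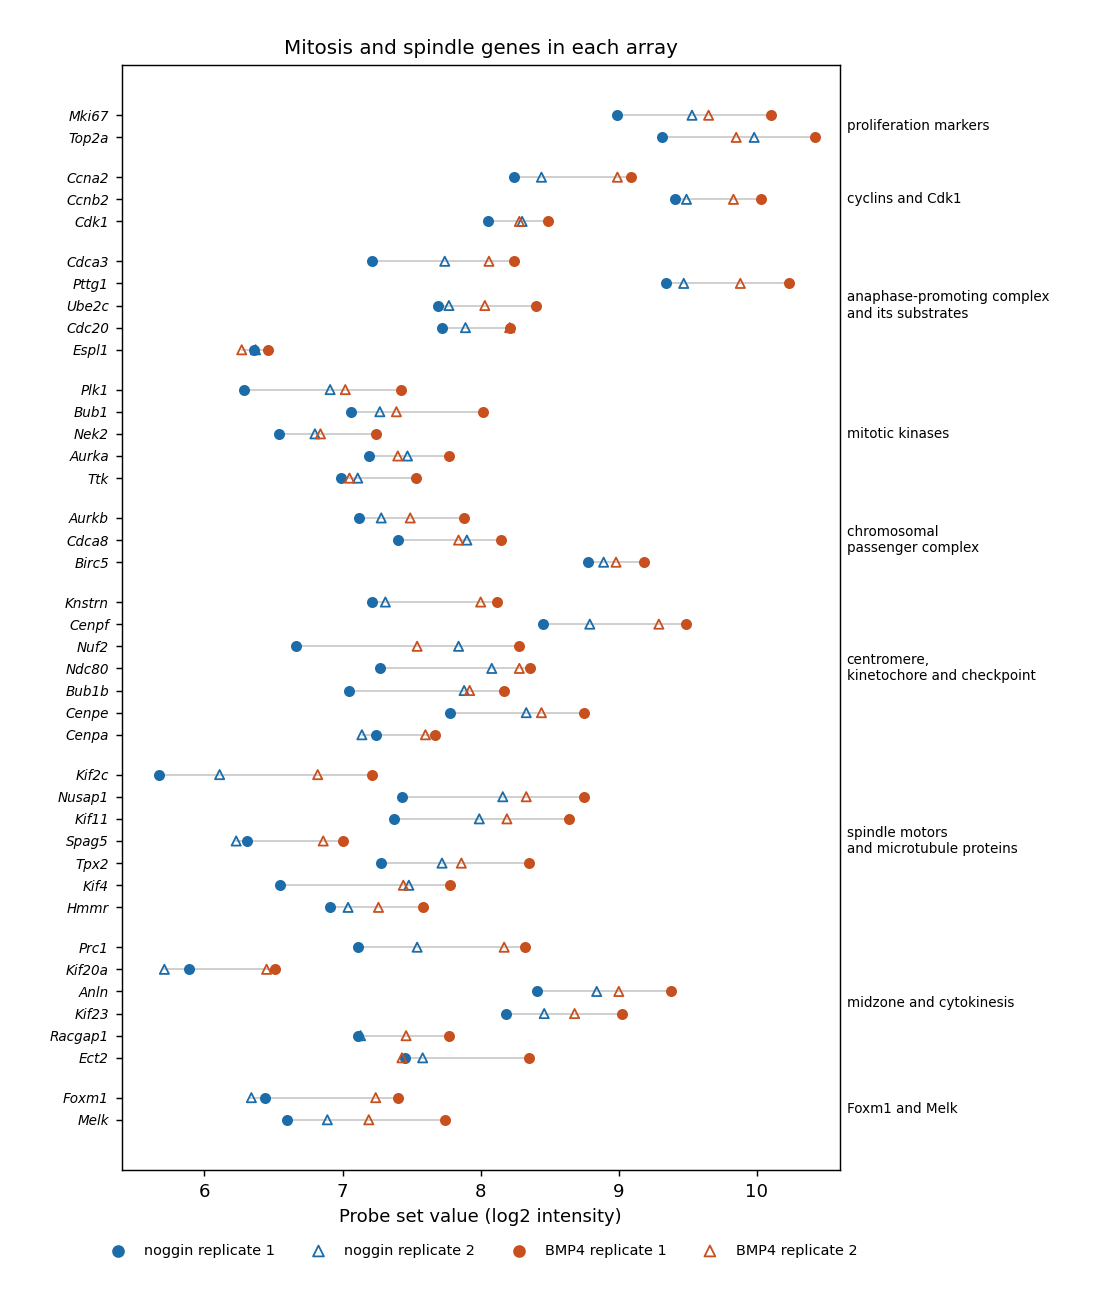
Log2 probe set value (horizontal axis) of the 40 measured mitosis and spindle genes (vertical axis, grouped by role) in the 2 noggin arrays (blue) and the 2 BMP4 arrays (orange), with filled circles for replicate 1 and open triangles for replicate 2. BMP4 replicate 1 is the rightmost point in 40 genes and noggin replicate 1 the leftmost in 34, and the positions of different genes on the axis are not comparable as levels because each probe set binds differently.

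A list of genes named for cell division can be rich in late cell cycle promoter elements by that choice alone, whatever the arrays show. The promoters of the set are shown for the elements that late cell cycle genes are known for. These are the cell cycle genes homology region, or CHR, which the MuvB complex binds, and the CCAAT box, which the factor NF-Y binds. RefSeq promoters on GRCm38.p6, from 250 bases before to 50 after the listed start, were found for 35 of the 40 measured genes, taking the first listed start. The CHR was searched as TTTGAA or TTCGAA and the CCAAT box as CCAAT, on both strands, and overlaps between matches were found in 2 promoters. A CHR was found in 27 of the 35 promoters, or 77.1%, against 19.4% of the 27025 promoters of all genes in the table. A CCAAT box was found in 26, or 74.3%, against 37.9% of all. Both were found in 24, or 68.6%, against 7.70% of all. Among 59 promoters of other mitotic genes, 62.7% held a CHR, 71.2% a CCAAT box and 45.8% both. The E2F motifs TTTCCCGC, TTTCGCGC and TTTGGCGC, known from S-phase genes, were found in the promoter of Cdk1 alone, which is 2.86% of the 35 against 1.91% of all. Of the 59 promoters of other mitotic genes, 8 held an E2F motif, or 13.6%. A match describes letters and is not evidence of binding.

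The 8 promoters below were chosen as genes of different roles, with 6 that hold a CHR and a CCAAT box in the stretch shown, Kif2c with a CHR only and Knstrn with neither. Each runs 5′ to 3′ in the direction of the gene from base -120 to base 30 around the start, with matches to the searched motifs in capitals (ATTGG and TTCAAA are the CCAAT box and CHR read on the opposite strand).
Cdk1, chr10:69352883-69353032, minus strand: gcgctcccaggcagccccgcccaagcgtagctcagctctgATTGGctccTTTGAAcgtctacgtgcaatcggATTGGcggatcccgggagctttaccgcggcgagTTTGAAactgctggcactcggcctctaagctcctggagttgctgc
Ccnb2, chr9:70421525-70421674, minus strand: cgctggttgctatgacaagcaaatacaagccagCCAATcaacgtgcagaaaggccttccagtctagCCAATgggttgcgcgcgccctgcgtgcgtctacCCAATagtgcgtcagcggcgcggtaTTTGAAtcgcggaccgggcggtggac
Cdc20, chr4:118437314-118437463, minus strand: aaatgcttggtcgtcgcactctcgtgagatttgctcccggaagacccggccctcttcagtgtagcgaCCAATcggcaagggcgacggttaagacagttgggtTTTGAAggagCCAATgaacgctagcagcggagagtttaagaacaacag
Cenpf, chr1:189688057-189688206, minus strand: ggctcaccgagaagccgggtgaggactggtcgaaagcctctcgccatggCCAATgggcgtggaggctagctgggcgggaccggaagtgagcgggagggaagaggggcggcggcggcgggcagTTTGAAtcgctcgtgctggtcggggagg
Prc1, chr7:80294331-80294480, plus strand: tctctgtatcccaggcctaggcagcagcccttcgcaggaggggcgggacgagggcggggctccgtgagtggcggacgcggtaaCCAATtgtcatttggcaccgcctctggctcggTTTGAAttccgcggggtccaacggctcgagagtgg
Spag5, chr11:78301471-78301620, plus strand: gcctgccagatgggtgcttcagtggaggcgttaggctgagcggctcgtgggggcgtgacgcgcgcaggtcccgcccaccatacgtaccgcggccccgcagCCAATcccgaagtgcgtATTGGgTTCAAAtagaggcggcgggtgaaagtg
Kif2c, chr4:117178743-117178892, minus strand: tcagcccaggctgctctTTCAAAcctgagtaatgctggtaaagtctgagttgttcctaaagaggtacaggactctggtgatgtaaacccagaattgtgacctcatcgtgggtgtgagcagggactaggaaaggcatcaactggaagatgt
Knstrn, chr2:118813883-118814032, plus strand: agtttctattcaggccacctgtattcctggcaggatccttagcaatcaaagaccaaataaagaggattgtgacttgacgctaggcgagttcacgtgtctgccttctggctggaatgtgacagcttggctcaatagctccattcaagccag

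In these stretches Cdk1, Ccnb2, Cdc20, Cenpf, Prc1 and Spag5 each hold a CHR within 20 bases of the start. Cdk1 holds another at bases -71 to -66. The CCAAT boxes lie before the CHR in Ccnb2, Cenpf, Prc1 and Spag5, and on both sides of it in Cdc20. Over the 35 promoters, 25 of the 36 CHR matches began between bases -60 and 40. The 27 genes with a CHR had a median difference of -0.53, ranging from -1.12 to -0.00043, and the 8 without one a median of -0.66, ranging from -0.80 to -0.25. The ranges overlapped, and the comparison was not tested.

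Of the regulators, Foxm1 encodes a transcription factor that drives the late cell cycle genes. Foxm1 had log2 values of 6.44 and 6.34 in the noggin arrays and 7.40 and 7.24 in the BMP4 arrays. The groups were well separated, with means of 6.39 ± 0.075 (SD, n = 2) and 7.32 ± 0.12 (SD, n = 2), and differed by -0.93 (95% interval -1.23 to -0.63) at an adjusted p of 0.636 (limma), the smallest of the set. Leaving out any array kept the Foxm1 difference between -1.02 and -0.85. Foxm1 was picked earlier by its small p on these arrays, which favours tight replicates, so this stability is no separate support. Melk, a kinase of proliferating cells, read 6.60 and 6.89 in noggin and 7.74 and 7.19 in BMP4, where BMP4 replicate 1 was far above its partner. Its difference was -0.72 and ranged from -0.99 to -0.45 on leaving out 1 array.

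The cyclins had closely matched replicates. Ccna2 encodes cyclin A2, which acts in S phase and at mitotic entry, and read 8.24 and 8.44 in noggin against 9.09 and 8.99 in BMP4. Its difference of -0.70 (95% interval -1.02 to -0.38, adjusted p 0.732 in limma) was 1.62-fold. Ccnb2, the cyclin B2 partner of Cdk1, read 9.41 and 9.49 in noggin and 10.03 and 9.83 in BMP4, a difference of -0.48. In both genes the noggin arrays lay below the BMP4 arrays, while Cdk1, the kinase that these cyclins activate, overlapped. Cdk1 read 8.05 and 8.30 in noggin and 8.49 and 8.28 in BMP4, and its difference of -0.21 was among the smallest of the set. The promoters of Cdk1 and Ccnb2 both hold a CHR and CCAAT boxes in the stretches printed above.

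Of the common proliferation markers, Mki67 followed the array order of the whole set, while Top2a had noggin replicate 2 above BMP4 replicate 2. Mki67, which encodes the Ki-67 coat protein of mitotic chromosomes, read 8.99 and 9.53 in noggin and 10.1 and 9.65 in BMP4. Its noggin arrays lay below its BMP4 arrays by a narrow margin, and the difference was -0.62 (95% interval -1.33 to 0.10). Top2a, the topoisomerase that untangles chromosomes, read 9.31 and 9.98 in noggin and 10.42 and 9.85 in BMP4, so the groups overlapped. The difference of Top2a was -0.49 and ranged from -0.83 to -0.16 on leaving out 1 array. A second Top2a probe set, with a mean of 4.25, differed by 0.16 in the other direction. That mean lies below the lower quartile of every array, 4.71 to 4.72, where detection above background is unknown.

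The 5 mitotic kinases had a median difference of -0.37, against -0.67 for the 7 spindle motors and microtubule proteins, a gap that was not tested. The kinase median was -0.17 without BMP4 replicate 1, -0.24 without noggin replicate 1 and -0.57 without BMP4 replicate 2. Plk1, the polo-like kinase of mitotic entry and spindle assembly, read 6.29 and 6.91 in noggin and 7.42 and 7.02 in BMP4, a difference of -0.62. Bub1, a checkpoint kinase at kinetochores, read 7.06 and 7.27 against 8.02 and 7.39, and Nek2, which separates centrosomes, read 6.54 and 6.80 against 7.24 and 6.84. In these 3 genes the groups did not overlap, but noggin replicate 2 came close to BMP4 replicate 2. Aurka, the centrosome and spindle-pole kinase, and Ttk, the Mps1 kinase that starts the checkpoint, overlapped, with differences of -0.25 and -0.24. Without BMP4 replicate 1 their differences were -0.07 or nearer to 0.

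Aurkb, Birc5 and Cdca8 encode the Aurora B kinase, survivin and borealin of the chromosomal passenger complex, which corrects faulty spindle attachments. Aurkb read 7.12 and 7.28 in noggin and 7.88 and 7.49 in BMP4, with no overlap and a difference of -0.48. Birc5 also did not overlap, at 8.78 and 8.89 against 9.18 and 8.98, with a difference of -0.25. Cdca8 overlapped, since noggin replicate 2 at 7.90 lay above BMP4 replicate 2 at 7.84, and its difference was -0.34. The median of the 3 genes, -0.34, was -0.19 without BMP4 replicate 1, -0.19 without noggin replicate 1 and -0.57 without noggin replicate 2.

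Among centromere and kinetochore genes, the lines were apart in 6 of 7, against 17.9% of all named genes, and the median difference was -0.65. That median moved to -0.26 on leaving out noggin replicate 1. Knstrn, the small kinetochore protein kinastrin, read 7.21 and 7.31 in noggin and 8.12 and 8.0 in BMP4. Its difference of -0.80 (95% interval -1.08 to -0.52, adjusted p 0.640 in limma) moved between -0.86 and -0.74 on leaving out 1 array. Knstrn too was picked earlier by its small p, so this stability is no separate support. Cenpf, a large kinetochore protein of G2 and mitosis, read 8.45 and 8.79 in noggin and 9.49 and 9.29 in BMP4, a difference of -0.77. Cenpa, the histone H3 variant that marks centromeres, had a smaller difference of -0.44 with tight replicates, at 7.24 and 7.14 against 7.67 and 7.60. Both genes thus had gaps between the lines that were larger than the gaps within them. Ndc80 and Nuf2 encode partners in the Ndc80 complex that grips microtubules. They had low values in noggin replicate 1, at 7.27 and 6.66, against 8.08 and 7.84 in noggin replicate 2. Without noggin replicate 1 the difference of Ndc80 was -0.25 and that of Nuf2 was -0.07, from -0.65 and -0.66 with all arrays. The kinetochore motor Cenpe and the checkpoint protein gene Bub1b were likewise lowest in noggin replicate 1, with differences of -0.54 and -0.58.

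Genes grouped around the anaphase-promoting complex were lower in noggin for 5 of 5 by their means, against 52.2% of all named genes. Espl1 lay at the boundary. Cdc20, the activator of the complex, read 7.72 and 7.89 in noggin and 8.21 in both BMP4 arrays. Ube2c, its ubiquitin-conjugating enzyme, read 7.69 and 7.77 against 8.40 and 8.03, and Pttg1, the securin that restrains separase, read 9.34 and 9.47 against 10.23 and 9.88. None of these overlapped, and their differences were -0.40, -0.48 and -0.65. Cdca3, a substrate of the complex, differed by -0.67, from 7.21 and 7.74 in noggin to 8.24 and 8.06 in BMP4. Espl1, which encodes separase, read 6.36 and 6.37 in noggin and 6.46 and 6.27 in BMP4, so its BMP4 arrays lay on either side of the noggin arrays. Its difference was -0.00043 (95% interval -0.29 to 0.29), and its sign turned under quantile normalization and cyclic loess.

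Spindle motors and microtubule proteins held the largest difference of the set. The lines were apart in 6 of 7, against 17.9% of all named genes. The group's median moved to -0.39 on leaving out noggin replicate 1 and to -1.05 on leaving out noggin replicate 2. Kif2c, the MCAK kinesin that takes microtubules apart at centromeres, read 5.67 and 6.11 in noggin and 7.21 and 6.82 in BMP4. The difference of -1.12 (95% interval -1.73 to -0.51, adjusted p 0.742 in limma) ranged from -1.34 to -0.90 on leaving out 1 array. The noggin replicate 1 value of Kif2c lies below that array's median of 6.06, where the size of a fold is uncertain. Spag5, the astrin protein of spindle poles and kinetochores and a partner of Knstrn, read 6.31 and 6.23 in noggin and 7.0 and 6.86 in BMP4, a difference of -0.67. Nusap1, which bundles spindle microtubules, Kif11, the Eg5 motor that pushes spindle poles apart, and Tpx2, the activator of Aurora A, differed by -0.75, -0.74 and -0.61. In these 3 genes noggin replicate 1 lay well below noggin replicate 2, and the 95% intervals included 0. Hmmr, a spindle assembly protein, differed by -0.44. Kif4, a chromosome-bound kinesin, overlapped, with 6.55 and 7.48 in noggin against 7.78 and 7.44 in BMP4.

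Among the midzone and cytokinesis genes, the lines were apart in 5 of 6, against 17.9% of all named genes. Prc1, which crosslinks the microtubules of the spindle midzone, read 7.11 and 7.54 in noggin and 8.32 and 8.17 in BMP4, a difference of -0.92 (95% interval -1.42 to -0.42, adjusted p 0.742 in limma). Kif20a, a kinesin of the midzone, read 5.89 and 5.71 against 6.51 and 6.45. It was 1 of 4 genes with noggin replicate 2 as the lowest array, and the difference of -0.68 ranged only from -0.77 to -0.59 on leaving out 1 array. Both noggin values of Kif20a lie below the array medians. Kif23, the motor subunit of centralspindlin, and its partner Racgap1 differed by -0.53 and -0.50, and Anln, the anillin of the contractile ring, by -0.57. Ect2, the exchange factor that centralspindlin recruits, was high in BMP4 replicate 1 only, at 8.35, against 7.43 to 7.58 in the other arrays. Its difference of -0.38 became 0.08 without BMP4 replicate 1.

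**Figure D3:**
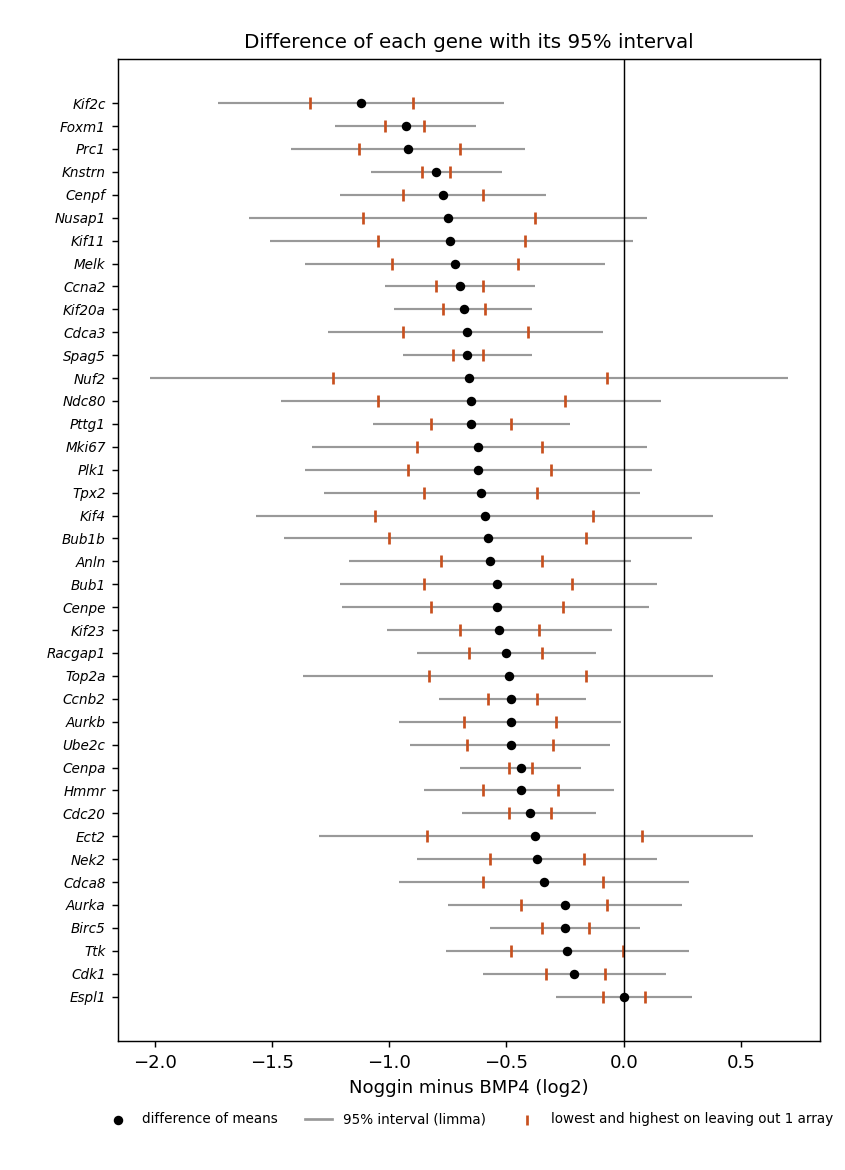
Difference of noggin minus BMP4 (horizontal axis, log2) for each of the 40 genes (vertical axis), with the 95% interval from limma (grey line) and the lowest and highest difference on leaving out 1 array (orange ticks). Intervals exclude 0 for 19 genes and include it for 21, and the ticks of Ect2 and Espl1 fall on both sides of 0.

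Other genes of mitosis, from a separate list of 75 of which 72 were measured, lay in the same direction by smaller amounts. Limma called 0 of the 72 in either direction. At an unadjusted p below 0.05 in limma, 16 lay lower and 1 higher, and 2.10% of all named genes lay lower. The noggin mean was the lower in 70, and the median difference of the list was -0.34. The lines were apart in 37, or 51.4%, against 17.9% of all named genes. The condensin subunit Ncapg and the spindle-pole gene Aspm differed by -0.51 and -0.53, the passenger complex gene Incenp by -0.47, and the checkpoint gene Mad2l1 by -0.46. Mastl, the Greatwall kinase, differed by -0.56, the condensin core gene Smc2 by -0.24, the cohesin protector Sgo1 by -0.18 and the centriole kinase Plk4 by -0.13, while Gtse1 differed by 0.04. The median of this list was -0.16 without BMP4 replicate 1 and -0.18 without noggin replicate 1.

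Genes of DNA replication and S phase had a median nearer to that of all named genes than the mitotic genes had. Of 52 measured, the noggin mean was the lower in 42, their median difference was -0.11, and Pcna and Mcm2 differed by -0.05 and -0.12. The lines were apart, with noggin below, in 22 of the 52, or 42.3%, above the 17.9% of all named genes. That median moved to -0.05 on leaving out noggin replicate 1 and to -0.20 on leaving out noggin replicate 2. Limma called 0 of the 52, with 5 lower and 0 higher at an unadjusted p below 0.05, against 2.10% of all named genes lower. Regulators upstream of the mitotic programme had a median difference of -0.02 over 29 genes, with 18 lower, and Mybl2, which encodes B-Myb, differed by -0.31. Limma called 0 of these 29, with 0 lower and 1 higher at an unadjusted p below 0.05. The higher gene was Lin9, also named after its values were seen. Lin9 read 6.36 and 6.60 in noggin and 5.85 and 6.02 in BMP4, a difference of 0.54 (adjusted p 0.801 in limma). Both noggin arrays of Lin9 thus lay above both BMP4 arrays. The CDK inhibitors had a median of -0.03 over 6 measured genes, with 4 lower. Limma called 0 of the 6, with 1 lower and 0 higher at an unadjusted p below 0.05. The lower gene was Cdkn1b, which encodes the inhibitor p27 and is named here after its values were seen. Cdkn1b read 8.18 and 8.57 in noggin and 9.69 and 9.46 in BMP4, a difference of -1.2 that lay between -1.39 and -1.0 on leaving out 1 array (adjusted p 0.701 in limma). This was larger in size than the difference of any of the 40 genes, while another probe set of Cdkn1b differed by -0.18. The difference between these lists and the mitosis and spindle genes was not tested.

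Marker lists of keratinocytes and other cells varied in how they moved across the same arrays. Basal keratinocyte markers, the layer where division takes place, had a median difference of -0.10, with 6 of 11 lower in noggin, and Krt5 and Krt14 differed by -0.10 and -0.14. Their mean log2 value was 9.60 and 9.63 in the noggin arrays and 9.66 and 9.65 in the BMP4 arrays. Suprabasal and granular markers had a median of 0.05, with 2 of 10 lower, Krt1 and Krt10 at 0.04 and 0.05, and mean values of 12.42 and 12.52 in noggin and 12.24 and 12.40 in BMP4. The medians of these keratinocyte lists were thus nearer to 0 than that of the mitosis and spindle genes, -0.57. Markers listed for hair matrix and shaft, a list that also holds root sheath keratins, were lower in noggin for 19 of 19. The share over all named genes was 52.2%, and the median difference of the list was -0.20. The hair matrix is another dividing tissue of skin, and the strips were of glabrous skin. The list's mean values were 6.04 and 5.85 in noggin and 6.75 and 6.34 in BMP4. Krt84, named after its values were seen, weighs on these means, at 5.47 and 5.71 in noggin and 11.6 and 9.09 in BMP4. The root sheath keratins Krt25 and Krt27 differed by -1.74 and -0.03. Without BMP4 replicate 1 the list's median was -0.13, and without noggin replicate 1 it was -0.36. On leaving out 1 array Krt27 ranged from -0.36 to 0.31. Their part in the result was not tested.

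Immune and muscle markers went the other way and were lowest in BMP4 replicate 1, the array with the highest mitotic values. Over all named genes, 9538 of 19938 had the higher mean in noggin. Of the Langerhans cell and macrophage markers, 15 of 17 had the higher mean in noggin, with mean values of 7.58 and 7.66 in noggin and 6.65 and 7.43 in BMP4, and Cd207 and Epcam differed by 0.58 and 0.68. Without BMP4 replicate 1 the list's median went from 0.58 to 0.26, and Cd207 and Epcam differed by 0.39 and 0.30. T cell markers were higher in noggin for 10 of 10, with mean values of 6.46 and 6.67 in noggin and 6.10 and 6.36 in BMP4, and Cd3d and Cd3e differed by 0.24 and 0.17. Their median of 0.21 was 0.16 without BMP4 replicate 1 and 0.37 without noggin replicate 1, and Cd3e ranged from -0.05 to 0.39 on leaving out 1 array. Skeletal muscle markers were higher in noggin for 19 of 20, with mean values of 8.61 and 7.78 in noggin and 7.10 and 8.06 in BMP4, and Acta1 and Actn2 differed by 1.09 and 0.33. Without BMP4 replicate 1 these were 0.22 and 0.04, and the list's median went from 0.65 to 0.13. It was 0.17 without noggin replicate 1. Noggin replicate 1, the array with the lowest mitotic values, thus had the highest muscle values. Their part in the result was not tested. Fibroblast, sweat gland, melanocyte and endothelial markers had medians of -0.01, 0.0025, 0.05 and 0.14, over 12, 11, 8 and 6 genes with 8, 5, 3 and 2 lower in noggin. The first markers of these 4 lists, Col1a1, Col1a2, Krt8, Krt18, Pmel, Mlana, Pecam1 and Cdh5, differed by between -0.04 and 0.33.

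**Figure D4:**
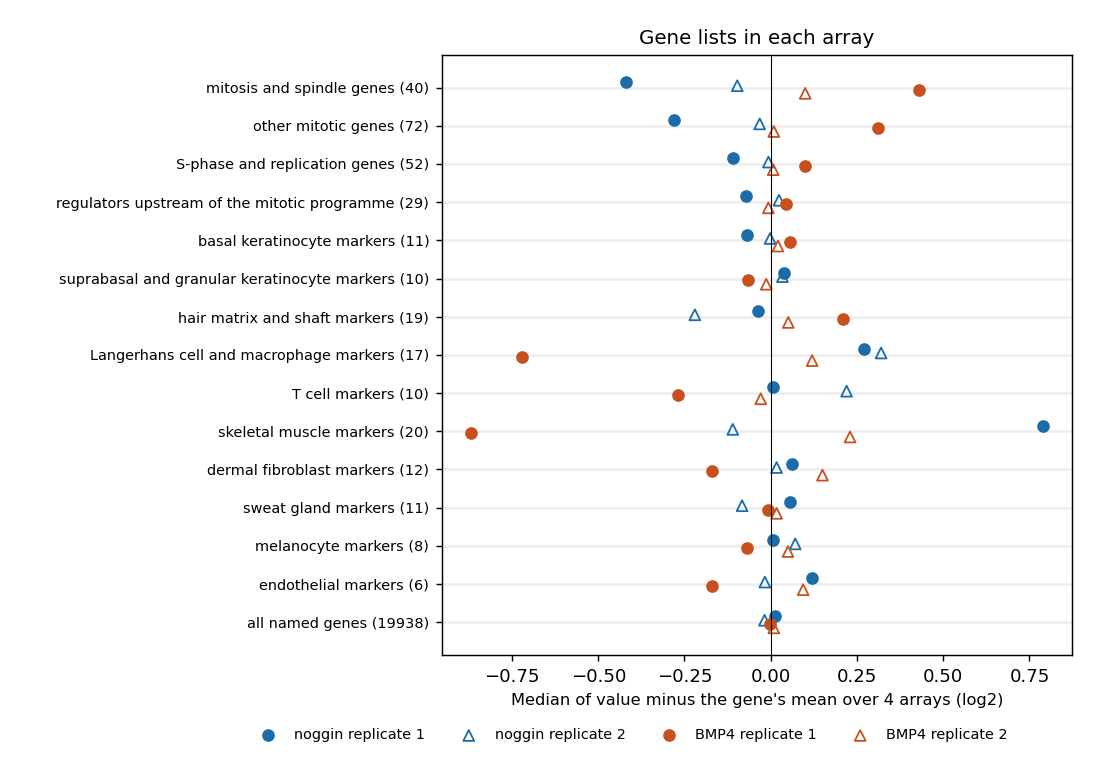
Median over each gene list (vertical axis, number of genes in brackets) of the log2 value minus the gene's mean of the 4 arrays (horizontal axis), for each noggin array (blue) and BMP4 array (orange), with filled circles for replicate 1 and open triangles for replicate 2. The mitosis and spindle genes run from -0.42 in noggin replicate 1 to 0.43 in BMP4 replicate 1, and the skeletal muscle markers run the other way, from 0.79 to -0.87 in the same arrays.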

How the data were processed

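Biotin-labelled RNA of laser-captured epidermis, amplified with NuGEN pico chemistry, was hybridised to 4 arrays, per the labels' protocols. The deposited log2 values come from Affymetrix Expression Console and RMA by the authors, per the submitters' processing notes, with no version or settings. RMA equalizes the arrays' distributions and compresses differences of dim probe sets. Detection above background is unknown, and precision is limited by the number of arrays.

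Noggin minus BMP4 was fitted on all 35556 probe sets with limma 3.58.1 (R 4.3.3), using lmFit and eBayes with no covariate, which gave 2 residual and 2.08 prior degrees of freedom. The two-sided p was adjusted by Benjamini-Hochberg over every probe set, with 0.05 as the threshold. The code was tested on simulated data. Of the probe sets, 21789 had 1 gene symbol, 1621 several and 12146 none. List symbols were matched through Entrez identifiers to GRCm38.p6. Gene lists were described by counts and medians, without a test. The named genes were all members, 10 fixed genes of the mitotic programme, Pcna, Mcm2 and the first 2 markers of each cell type list. The members and lists were chosen with earlier results of these data known. Alternatives were 3 scalings, a filter on dim probe sets, a trend or robust prior, the replicate number as a block, averaging a gene's probe sets, leaving out each array, and leaving out 3 members. Figures were drawn with matplotlib 3.10.9.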

Additional observations from a re-analysis of the deposited data

How the results depend on the processing

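Some of the 12 alternatives that were planned for each of the 40 genes could not change a difference. These were the filter on dim probe sets, the other priors and the replicate block, so agreement under them was fixed in advance. Averaging a gene's probe sets could change only Top2a. Over all 12 alternatives, 475 of 480 recomputed differences kept their direction. The 5 others were Espl1, at 0.01 under quantile normalization, 0.02 under cyclic loess, 0.09 without BMP4 replicate 1 and 0.0031 without noggin replicate 1, and Ect2, at 0.08 when BMP4 replicate 1 was left out. On leaving out 1 array Espl1 ranged from -0.09 to 0.09 and Ect2 from -0.84 to 0.08. Limma called 0 of the 40 genes in each alternative that kept all 4 arrays. This adds little, since the main fit rarely called simulated log2 differences of 1. On leaving out 1 array the median difference ranged from -0.75 to -0.38, and the number of genes with a lower noggin mean from 38 to 40. The lines were apart in 31 without noggin replicate 1 and in 31 without BMP4 replicate 1, against 40.3% and 34.8% of all named genes. They were apart in 38 without noggin replicate 2 and in 40 without BMP4 replicate 2, against 31.4% and 32.7%. The median of the other mitotic genes ranged from -0.46 to -0.16. The other scalings, the filter on dim probe sets and the other priors gave medians from -0.59 to -0.57.

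Replicate numbers were not taken as pairs, because arrays with the same number had deviations with a correlation of -0.119 and no label links a number to animals or a day. With the replicate number as a block the median difference was -0.57, 0 of the 40 genes were called, and 13 in place of 19 lay lower at an unadjusted p below 0.05. A crossed pairing, chosen after seeing the data, also called 0 of the 40, with 31 lower at that level. With 2 arrays per line and unknown detection, the data do not set the size of the difference closely.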
